A study of Homo sapiens with 82 samples.

Results

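Ribosome biogenesis genes encode the nucleolar proteins that transcribe, modify, cut and fold ribosomal RNA and assemble it with ribosomal proteins. The 46 genes described here were chosen by name, with earlier results of these data known. Every one of them matched a row of the gene count tables, which held 51838 rows. They were ordered by role into 6 groups, namely RNA polymerase I transcription (5 genes), box C/D snoRNP proteins (3), box H/ACA snoRNP proteins (4), multifunctional nucleolar proteins (5), small subunit processing (15) and large subunit processing (14).

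HT29, an established human colorectal adenocarcinoma cell line, was treated with the vehicle DMSO, with GW3965 or T0901317, which are agonists of the liver X receptors (LXRs), or with rosiglitazone, an agonist of PPARG. Each drug was given at 10 uM, and RNA was sequenced at 24 h and 48 h in 4 replicate libraries of each of the 8 groups, 32 libraries in all. The labels name no genetic change in these cells, and the DMSO groups differed from the drug groups in the agent. All groups came from this 1 line. Per the study's methods each treatment was carried out 4 times, but whether this was in separate passages or on separate days is not given in the sources used here, so the p-values measure the spread between these libraries, which may be technical.

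Making ribosomes starts in the nucleolus, where RNA polymerase I copies ribosomal DNA into a long precursor that small nucleolar ribonucleoproteins (snoRNPs) modify and that processing factors cut and fold into the small and the large subunit. The pathway is costly to the cell and is tied to growth. MYC, a transcription factor that binds DNA with its partner MAX at the letters CACGTG (an E-box), is known as an activator of many of these genes, and colorectal tumours commonly carry a high level of it.

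The libraries held between 21044798 and 51332656 counts. Levels are given as CPM with TMM scaling over the 32 libraries. CPM is the count of a gene over a scaled total of its library, on a fixed scale. That total is the counts of the genes passing the filter on low counts, multiplied by the TMM factor of the library. The mean factor at 48 h was 0.909 for rosiglitazone and 1.045 for DMSO. A CPM is thus a relative level that depends on the scaling, and not a plain share of all counts. It does not show a change in cell number or in RNA per cell. A gene was called where the adjusted p of edgeR's quasi-likelihood test was below 0.01, with Benjamini-Hochberg adjustment over all genes tested, and a stricter count also asked for a fold of 1.5. Of 9 colorectal epithelium markers 6 were above 10 CPM in all 32 libraries, and CDX1, CDX2 and CDH17, intestinal genes, were at 0.735 to 4.02, 6.46 to 20.8 and 3.79 to 13.1 CPM. EPCAM, KRT8 and KRT18 were at 241 to 365, 7110 to 11100 and 5450 to 8340 CPM, while 5 of 7 fibroblast markers and 3 of 6 leukocyte markers stayed below 1 CPM in all 32 libraries. With rosiglitazone at 48 h KRT20 and CDH1 rose, by 1.75 and 0.52 on the log2 scale. VIL1, CDX1, CDX2 and CDH17 fell, with log2 values from -1.03 (CDX1) to -0.67 (CDX2). With GW3965 at 48 h 4 of the 9 were called higher and 0 lower, beside 16.1% and 17.5% of all genes. With T0901317 4 were higher and 2 lower, beside 14% and 16.1%. The part of these differences in the results was not tested. The leukocyte marker LYZ, lysozyme, which is also made by intestinal epithelium, was at 452 to 749 CPM. It rose with GW3965 and T0901317 at 48 h, by 0.27 and 0.61 on the log2 scale. Of the 3 leukocyte markers tested, 2 were called higher with each LXR agonist at 48 h. The largest log2 values were 1.94 and 2.54, of markers other than LYZ that stayed at or below 5.29 CPM. The defining leukocyte marker PTPRC was at 0.111 CPM or less. ABCA1, the sterol efflux pump and LXR target, rose with GW3965 and T0901317 at 24 h by 24.5-fold and 13.1-fold. ANGPTL4, a PPARG target, rose with rosiglitazone by 32.4-fold. Calls were not confined to targets of the agonist's own receptor. GW3965 raised 2 of 4 PPARG targets by 24 h, and all 3 tested by 48 h. T0901317 raised 1 of them each time. Among 4 LXR targets, rosiglitazone raised 2 but lowered 1 by 24 h, while 3 had risen by 48 h. The part of this crossover in the results was not tested. Of the 24 h libraries, GW3965 replicate 1 held the highest value of its group for 33 of the 46 genes, and without it the count for rosiglitazone against GW3965 at 24 h given below moved from 11 to 20. At 48 h, rosiglitazone replicate 1 was the lowest of its group for 29 of the 46 genes and replicate 3 the highest for 30.

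All 46 genes had counts in each library, the lowest value in any library being 9.24 CPM, and all 46 passed the filter on low counts at both time points. Summed over the 46 genes, the level in the 4 DMSO libraries was 5705, 5715, 5509 and 5745 CPM at 24 h and 5398, 5186, 5614 and 5361 CPM at 48 h. In the GW3965 libraries the sum was 6331, 6027, 5831 and 5723 CPM at 24 h and 4148, 4305, 4084 and 4288 CPM at 48 h. The GW3965 libraries were all below those of DMSO at 48 h but not at 24 h. In the T0901317 libraries it was 5508, 5517, 5354 and 5418 CPM at 24 h and 3874, 3827, 3991 and 3588 CPM at 48 h. The rosiglitazone libraries stood at 7016, 6944, 6746 and 7062 CPM at 24 h and at 6803, 7189, 7975 and 7291 CPM at 48 h. No library with an LXR agonist at 48 h reached the level of any DMSO library. With TMM scaling each rosiglitazone library was above each library of the other treatments at both time points. Without it this did not hold at 24 h. As a plain share of counts, rosiglitazone replicate 3 stood at 0.64%, below GW3965 replicate 1 at 0.6599%.

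MYC was followed beside these genes. In DMSO cells it stood at 201, 207, 179.9 and 188 CPM at 24 h and at 343, 309, 312 and 334 CPM at 48 h, without overlap. With GW3965 the values were 167, 194, 208 and 198 CPM at 24 h and 144, 155, 148 and 157 CPM at 48 h. These overlapped DMSO at 24 h and lay below it at 48 h. With T0901317 they were 172, 162, 182 and 164 CPM and then 119.9, 105, 82.1 and 106 CPM. With rosiglitazone they were 258, 233, 261 and 247 CPM and then 426, 551, 567 and 531 CPM. At 24 h only the rosiglitazone libraries were clear of DMSO, with a log2 fold change of 0.36 (SE 0.07, edgeR adjusted p = 0.000915), whereas the change was -0.02 (SE 0.07, edgeR adjusted p = 0.95) with GW3965 and -0.19 (SE 0.07, edgeR adjusted p = 0.235) with T0901317. At 48 h MYC fell with both LXR agonists, by log2 values of -1.11 (SE 0.096, edgeR adjusted p = 2.13e-08) for GW3965 and -1.65 (SE 0.097, edgeR adjusted p = 1.44e-10) for T0901317, and rose with rosiglitazone, by 0.66 (SE 0.095, edgeR adjusted p = 1.94e-05).

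**Figure D1:**
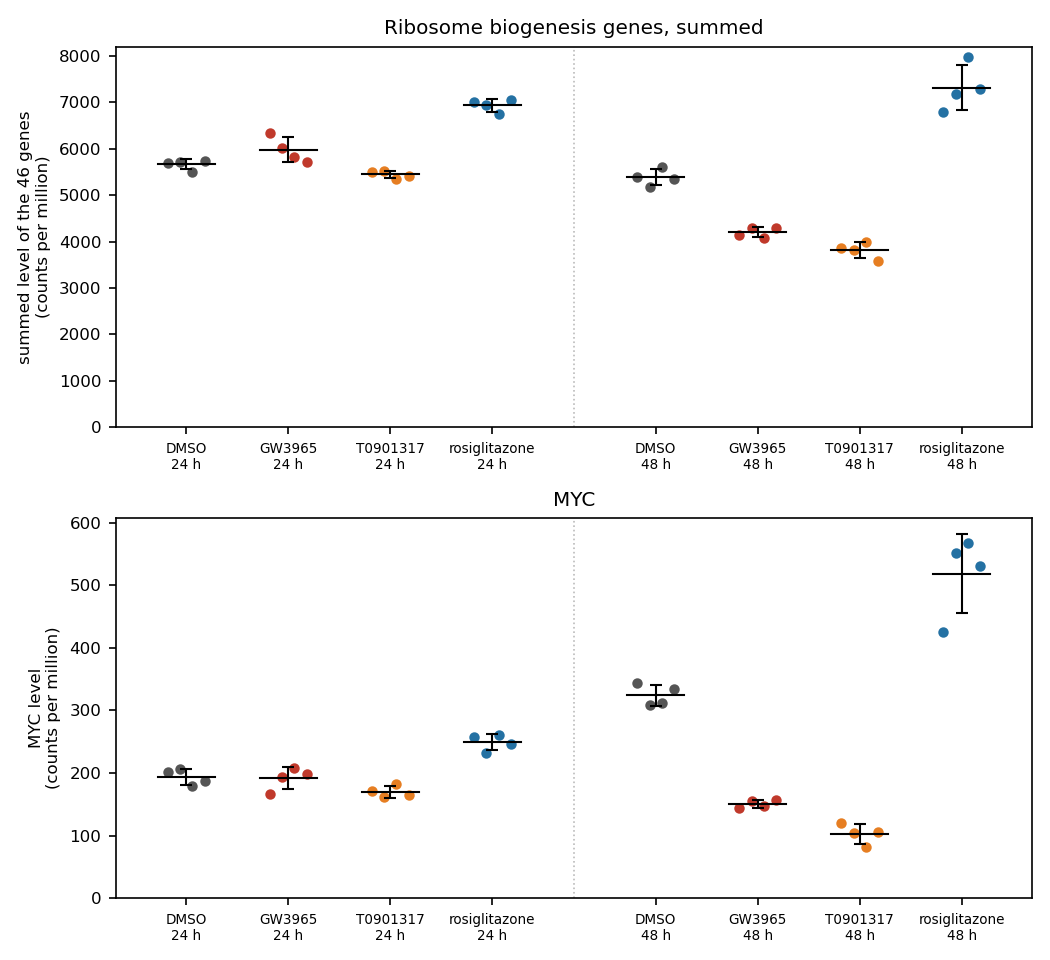
Summed level of the 46 ribosome biogenesis genes (top) and level of MYC (bottom), in CPM with TMM scaling, for each library of the 8 groups. Points are libraries, the line is the mean and the bars the SD over 4 libraries. At 48 h the libraries of both LXR agonists lie below all DMSO libraries in both panels and the rosiglitazone libraries lie above them.

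Across the 8 groups the ratio of the highest to the lowest group mean ran from 1.45 (NOP10) to 4.79 (RRP12) over the 46 genes, with a median of 2.1, and 26 genes had a ratio of 2 or more. With TMM scaling the highest mean of all 46 genes was in a rosiglitazone group, at 48 h for 28 genes and at 24 h for 18. The lowest mean was with T0901317 at 48 h for 32 genes and with GW3965 at 48 h for 9. Shares of all genes were not counted over the 8 groups. Within a time point, rosiglitazone had the highest mean for 45 of the 46 genes at 24 h, beside 33.1% of all genes. At 48 h it did so for 43, beside 34.4%. Among replicates the median coefficient of variation was 5.77%. For comparison, the ratio for MYC was 5.03, from T0901317 at 48 h to rosiglitazone at 48 h.

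At 24 h the genes did not pass the test with either LXR agonist and rose with rosiglitazone. None of the 46 was called with GW3965 by edgeR, where 1.86% of all genes tested were called higher and 0.868% lower; 6 were higher and 0 lower at an unadjusted p below 0.05, and DESeq2 called 1 higher, NOB1, the nuclease that makes the last cut in the small subunit RNA. Their median log2 fold change was 0.08, beside -0.01 over all genes. None was called with T0901317 by edgeR (1.33% of all genes higher, 0.119% lower) or by DESeq2, 0 were higher and 4 lower at an unadjusted p below 0.05, and the median was -0.06. For neither LXR agonist was the share of all genes at that unadjusted level counted. With rosiglitazone 27 of 46 rose and 0 fell, beside 5.81% of all genes higher and 6.52% lower, and the median log2 fold change was 0.26, beside -0.02 over all genes. With TMM scaling all 46 log2 values were above 0, from 0.09 for HEATR1 to 0.55 for LYAR. The share of all genes above 0 was not counted. None of the 46 reached a 1.5-fold change (1.81% of all genes rose by that much). In 38 genes all 4 rosiglitazone libraries were above all 4 DMSO libraries, beside 13.2% of all genes. With scaling to the library total in place of TMM, 9 genes were called higher, and that scaling moved the median of all genes in this comparison by -0.09 on the log2 scale. Without rosiglitazone replicate 1 the count was 17.

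At 48 h most of these genes moved in opposing directions with the LXR agonists and with rosiglitazone. With GW3965, 34 of 46 fell and 2 rose (BOP1 and UBTF), beside 17.5% of all genes lower and 16.1% higher, and 13 of those that fell did so by at least 1.5-fold (7.78% of all genes). The call of BOP1 was lost without DMSO replicate 2 or 3, and that of UBTF with library size scaling and without DMSO replicate 4 or GW3965 replicate 4. The median log2 fold change of the 46 was -0.45, beside 0.00 over all genes, and in 35 genes all 4 GW3965 libraries were below all 4 DMSO libraries (23.1%). With T0901317, 39 fell and 0 rose (16.1% and 14% of all genes), 21 by at least 1.5-fold (7.28%), and the median was -0.54, beside 0.01, and 40 genes were below DMSO without overlap (20.3%). With rosiglitazone, 35 rose and 0 fell (12.3% and 13.1% of all genes), 5 by at least 1.5-fold (4.79%), and the median was 0.40, beside -0.01, and 37 genes were above DMSO without overlap (17.4%). Scaled to the library total, 21 rose with rosiglitazone and 1, UBTF, fell, and that scaling moved the median of all genes by -0.18.

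The 3 drugs were compared with the same DMSO libraries, so their calls at a time point are not independent of each other and are set side by side only. At 48 h 29 genes were lower with both LXR agonists and higher with rosiglitazone, beside 2.97% of all genes, and with library size scaling 17 genes were. Of the rest, PES1 and RRP9 were lower with T0901317 and higher with rosiglitazone, and EBNA1BP2, GAR1, NOP14, POLR1B and UTP14A were lower with both LXR agonists without a call for rosiglitazone. NOB1 and POLR1C were lower with T0901317 alone. FBL, NHP2 and WDR12 were higher with rosiglitazone alone, UBTF was higher with GW3965 alone, and BOP1 was higher with GW3965 and rosiglitazone and lower with T0901317. NOP10, NPM1 and WDR75 passed the test with none of the 3 drugs. By group means at 48 h, 31 of the 46 genes stood in the order T0901317, GW3965, DMSO and rosiglitazone from low to high. This was the order of 12% of all genes. At 24 h 2 of the 46 genes stood in it, beside 6.16% of all genes. The means of MYC stood in this order at both time points, though its GW3965 and DMSO libraries overlapped at 24 h. With the 2 LXR agonists in either order below DMSO and rosiglitazone on top, the counts were 38 at 48 h (21.9% of all genes) and 3 at 24 h (10.9%).

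**Figure D2:**
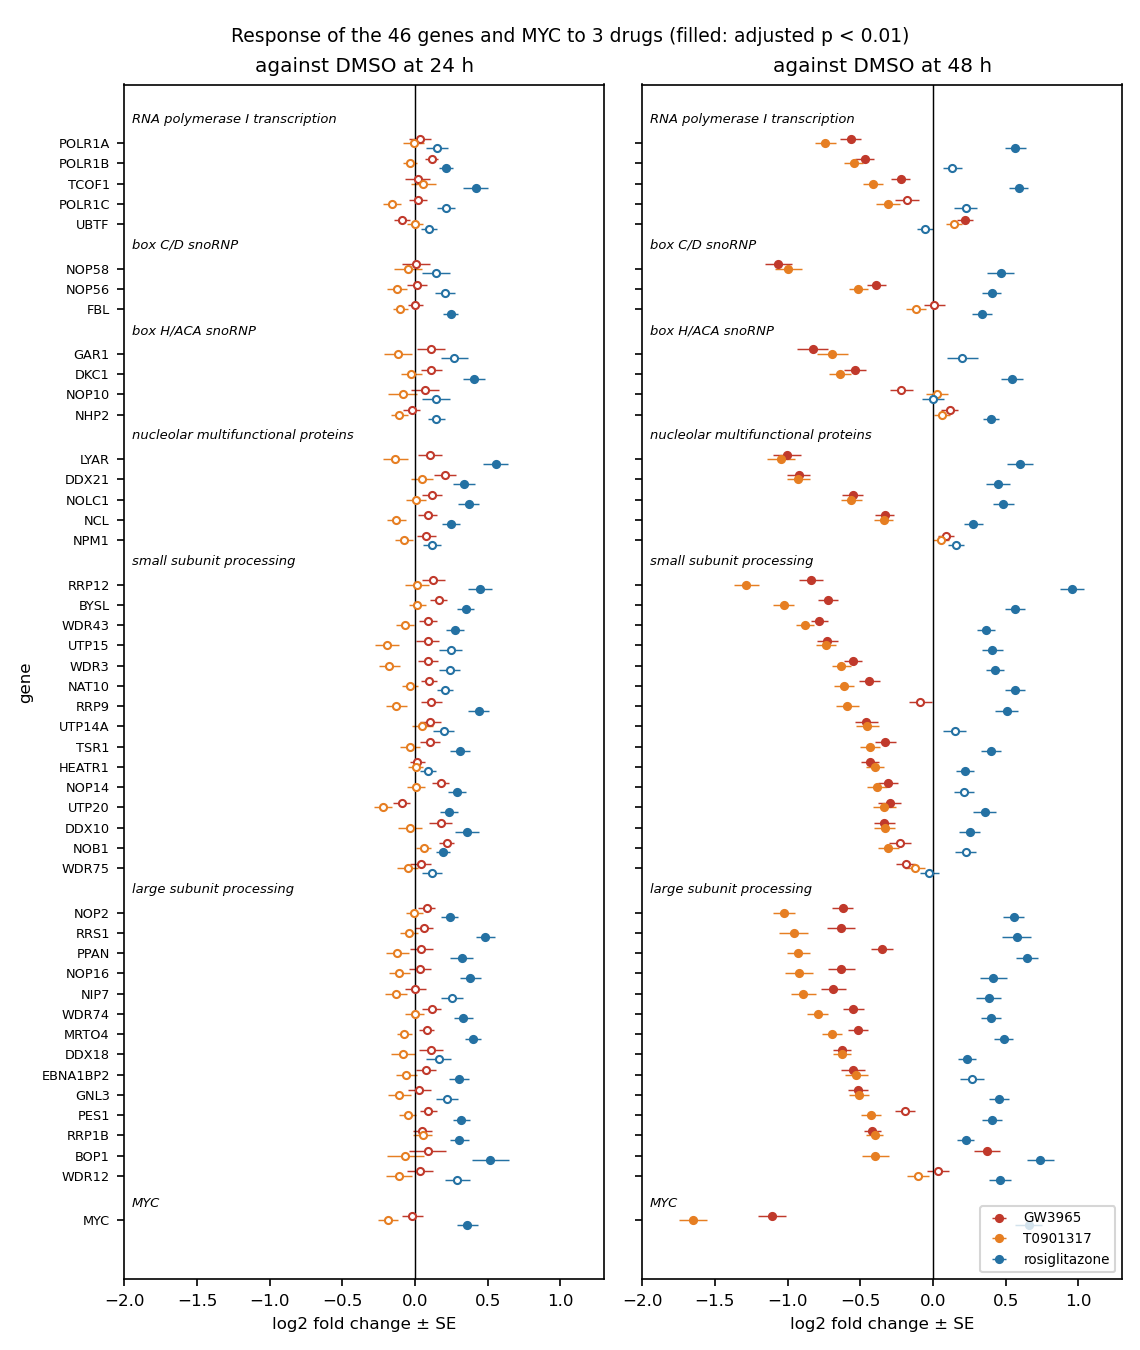
Log2 fold change against DMSO with its SE (horizontal axis) for each of the 46 genes, grouped by role, and for MYC, at 24 h (left) and 48 h (right), from edgeR over 4 libraries a group. Filled points have an adjusted p below 0.01; at 48 h 34 genes are called lower with GW3965, 39 lower with T0901317 and 35 higher with rosiglitazone.

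Among the RNA polymerase I genes, 3 of 5 fell and 1 rose with GW3965 at 48 h, 4 fell with T0901317 and 2 rose with rosiglitazone. Of all genes 17.5% fell and 16.1% rose with GW3965, 16.1% fell with T0901317 and 12.3% rose with rosiglitazone. POLR1A, the largest subunit of RNA polymerase I, stood at 101, 95.4, 93.8 and 105 CPM in DMSO at 24 h, 92, 102, 109.8 and 102 with GW3965, 96.5, 93.8, 108 and 93.5 with T0901317 and 118, 103, 122 and 98.2 with rosiglitazone, all overlapping. At 48 h it stood at 105, 95.6, 97.2 and 95.8 CPM in DMSO, 64.9, 66.3, 68.7 and 66.7 with GW3965, 63.6, 58.4, 54.8 and 58.5 with T0901317 and 128, 143, 172 and 148 with rosiglitazone. The 4 groups did not overlap at 48 h, and the log2 fold changes were -0.57 (SE 0.073, edgeR adjusted p = 3.1e-06), -0.74 (SE 0.073, edgeR adjusted p = 1.25e-07) and 0.57 (SE 0.072, edgeR adjusted p = 4.81e-06). TCOF1 encodes treacle, a nucleolar scaffold that joins RNA polymerase I transcription to RNA modification. Its 24 h values were 395, 411, 316 and 402 CPM in DMSO, 342, 385, 434 and 385 with GW3965, 402, 402, 421 and 356 with T0901317 and 531, 464, 548 and 502 with rosiglitazone. Its 48 h values were 244, 235, 240.4 and 241 CPM in DMSO, 199, 219.9, 194 and 213 with GW3965, 209, 178, 164 and 169.8 with T0901317 and 387, 367, 355 and 356 with rosiglitazone. Rosiglitazone libraries were the highest at both times, with log2 values of 0.42 (SE 0.087, edgeR adjusted p = 0.00161) at 24 h and 0.59 (SE 0.066, edgeR adjusted p = 9.16e-07) at 48 h, and both LXR agonists were below DMSO at 48 h, with log2 values of -0.22 (SE 0.066, edgeR adjusted p = 0.00955) and -0.41 (SE 0.066, edgeR adjusted p = 4.31e-05). UBTF, which keeps ribosomal DNA open for the polymerase, went the other way with a log2 value of 0.22 (SE 0.056, edgeR adjusted p = 0.00297) for GW3965, beside 0.14 (SE 0.056, edgeR adjusted p = 0.0487) for T0901317 and -0.06 (SE 0.056, edgeR adjusted p = 0.459) for rosiglitazone.

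The 3 box C/D proteins belong to the core of the particles that methylate ribosomal RNA on its ribose, and they did not move alike. NOP58, a scaffold protein of the particle, stood at 72.8, 70.7, 80.5 and 76.6 CPM in DMSO at 24 h, 94.8, 71.7, 69.7 and 66.2 with GW3965, 72.2, 77.7, 63 and 78.1 with T0901317 and 86.4, 77.3, 78 and 91.7 with rosiglitazone. At 48 h it stood at 119, 115, 126 and 123 CPM in DMSO, 58.2, 58.3, 53.4 and 61.3 with GW3965, 61.2, 64.8, 63.5 and 52.6 with T0901317 and 136, 163, 201 and 176 with rosiglitazone. No group was clear of DMSO at 24 h, but all were at 48 h, with log2 values of -1.07 (SE 0.091, edgeR adjusted p = 2.03e-08), -0.99 (SE 0.091, edgeR adjusted p = 4.84e-08) and 0.46 (SE 0.09, edgeR adjusted p = 0.000419). FBL, the methyltransferase fibrillarin itself, stood at 368, 369.6, 339 and 358 CPM in DMSO at 24 h, 376, 369, 348 and 346 with GW3965, 342, 326, 343 and 322 with T0901317 and 422, 449, 405 and 430.0 with rosiglitazone. Its 48 h values were 234, 236, 253 and 228 CPM in DMSO, 236, 240.2, 242 and 240.3 with GW3965, 220.5, 209, 258 and 189 with T0901317 and 319.8, 292, 302 and 303 with rosiglitazone. FBL was clear of DMSO with rosiglitazone at both times, by 0.24 (SE 0.052, edgeR adjusted p = 0.00213) and 0.34 (SE 0.07, edgeR adjusted p = 0.000846), while its values at 48 h were 0.01 (SE 0.07, edgeR adjusted p = 0.931) with GW3965 and -0.12 (SE 0.07, edgeR adjusted p = 0.199) with T0901317. NOP56, the other scaffold, lay between them at -0.39, -0.52 and 0.40, each called.

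Box H/ACA particles turn uridines of ribosomal RNA into pseudouridines. Their catalytic subunit DKC1 stood at 233, 228, 223 and 249 CPM in DMSO at 24 h, 295, 254, 233 and 228 with GW3965, 235, 240.0, 214 and 227 with T0901317 and 318, 326, 281 and 316 with rosiglitazone. At 48 h it stood at 245, 235, 262 and 242 CPM in DMSO, 169.8, 178, 159 and 173 with GW3965, 163, 159, 168 and 142 with T0901317 and 314, 357, 428 and 354 with rosiglitazone. DKC1 was thus higher with rosiglitazone at both times, by 0.41 (SE 0.073, edgeR adjusted p = 0.000473) and 0.54 (SE 0.077, edgeR adjusted p = 1.61e-05), and lower with both LXR agonists at 48 h, with log2 values of -0.54 (SE 0.077, edgeR adjusted p = 1.13e-05) and -0.64 (SE 0.077, edgeR adjusted p = 1.72e-06). GAR1, its partner in the particle, had values of 14.5, 14.3, 17.6 and 14.7 CPM in DMSO at 24 h, 19.2, 16.9, 15.3 and 14.7 with GW3965, 15.4, 14, 12.5 and 14.2 with T0901317 and 18.5, 20.9, 16.9 and 17.8 with rosiglitazone. Its values at 48 h were 18.2, 17.4, 21 and 17.1 CPM in DMSO, 12.3, 9.24, 9.67 and 10.4 with GW3965, 9.24, 12.4, 12.1 and 12 with T0901317 and 19.6, 20.5, 23.7 and 22.4 with rosiglitazone. GAR1 fell with both LXR agonists, with log2 values of -0.83 (SE 0.11, edgeR adjusted p = 3.05e-06) and -0.69 (SE 0.11, edgeR adjusted p = 2.64e-05), and its rosiglitazone libraries overlapped DMSO, at 0.20 (SE 0.1, edgeR adjusted p = 0.138). NHP2 and NOP10, the remaining core proteins, were not called with either LXR agonist, and NHP2 rose with rosiglitazone by 0.40 (SE 0.056, edgeR adjusted p = 1.33e-05).

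Of the multifunctional nucleolar proteins, 4 of 5 fell with each LXR agonist at 48 h and 4 rose with rosiglitazone. Among all genes 17.5% fell with GW3965, 16.1% fell with T0901317 and 12.3% rose with rosiglitazone. LYAR, a zinc finger protein of the nucleolus, stood at 27.6, 29.5, 31.2 and 25.3 CPM in DMSO at 24 h, 36.4, 30.3, 26.8 and 28.9 with GW3965, 26.2, 25.5, 23.5 and 28.1 with T0901317 and 42.6, 42.9, 39.6 and 42.3 with rosiglitazone. At 48 h it stood at 23.9, 22.6, 28.7 and 26.8 CPM in DMSO, 14.2, 11.3, 12.2 and 13.2 with GW3965, 12.2, 12.9, 13.3 and 11.1 with T0901317 and 34.9, 36.9, 44.8 and 40 with rosiglitazone. All LXR agonist libraries were below all DMSO libraries at 48 h, with log2 values of -1.01 (SE 0.095, edgeR adjusted p = 6.22e-08) and -1.05 (SE 0.095, edgeR adjusted p = 4.12e-08), and all rosiglitazone libraries were above them, by 0.60 (SE 0.092, edgeR adjusted p = 3.87e-05). NCL encodes nucleolin, an abundant protein that binds the precursor RNA. It stood at 724, 739.6, 752 and 720.3 CPM in DMSO at 24 h, 894, 779, 723 and 726 with GW3965, 679, 697, 616 and 689 with T0901317 and 873, 899.8, 816 and 910.3 with rosiglitazone. At 48 h its values were 558, 587, 629 and 574 CPM in DMSO, 462, 493, 433 and 484 with GW3965, 458, 473, 503 and 422 with T0901317 and 692, 706, 792 and 697 with rosiglitazone. NCL moved the same way as LYAR but less, with log2 values of -0.33 (SE 0.064, edgeR adjusted p = 0.000282), -0.34 (SE 0.064, edgeR adjusted p = 0.000266) and 0.28 (SE 0.064, edgeR adjusted p = 0.00202) at 48 h. The helicase DDX21 fell, at log2 values of -0.92 (SE 0.081, edgeR adjusted p = 2.42e-08) with GW3965 and -0.93 (SE 0.081, edgeR adjusted p = 2.46e-08) with T0901317, and NOLC1, a chaperone of snoRNPs, with log2 values of -0.55 (SE 0.071, edgeR adjusted p = 3.35e-06) and -0.56 (SE 0.071, edgeR adjusted p = 3.07e-06). NPM1, a histone and ribosome chaperone of the outer nucleolus, was the member of the group without a call, at 0.09, 0.06 and 0.16, and 14 rows named as its pseudogenes held 8.64% as many counts, and how reads were shared between them was not tested.

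In the small subunit group 12 of 15 genes fell with GW3965 at 48 h, 14 fell with T0901317 and 11 rose with rosiglitazone. The shares of all genes were 17.5%, 16.1% and 12.3%. None of the 15 was called against these directions. RRP12, which takes part in the ripening and export of both subunits, stood at 112, 117, 91.8 and 109.5 CPM in DMSO at 24 h, 106, 118, 129 and 117 with GW3965, 113, 103, 119 and 98.7 with T0901317 and 154, 137, 157 and 142 with rosiglitazone. At 48 h it stood at 181, 158, 182 and 172 CPM in DMSO, 92.6, 96.6, 102 and 96.3 with GW3965, 77.1, 65.6, 72.9 and 68.8 with T0901317 and 282, 341, 399.5 and 341 with rosiglitazone. The 4 groups were apart at 48 h in the order of MYC, and RRP12 had both the lowest and the highest log2 value of the 46 genes, -1.28 (SE 0.084, edgeR adjusted p = 5.28e-10) with T0901317 and 0.96 (SE 0.083, edgeR adjusted p = 3.29e-08) with rosiglitazone, beside -0.84 (SE 0.083, edgeR adjusted p = 1.09e-07) with GW3965. BYSL, an assembly factor of the small subunit, stood at -0.72, -1.03 and 0.57. WDR43, UTP15, WDR3, HEATR1 and UTP20, members of the processome that forms on the precursor RNA, were all called lower with both LXR agonists and higher with rosiglitazone. WDR75, also of the processome, was not called with any drug, at -0.19, -0.12 and -0.03. Other genes of the small subunit group showed only part of the pattern. NOP14 and UTP14A were lower with both LXR agonists without a call for rosiglitazone. RRP9 was lower with T0901317 and higher with rosiglitazone, and NOB1 was lower with T0901317 alone. The values of UTP14A are less certain, since the row of its retrocopy UTP14C held 116% as many counts.

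In the large subunit group 11 of 14 genes fell and 1 rose with GW3965 at 48 h, 13 fell with T0901317 and 13 rose with rosiglitazone. The shares of all genes were 17.5% and 16.1% with GW3965, 16.1% with T0901317 and 12.3% with rosiglitazone. NOP2, a methyltransferase of the large subunit RNA, stood at 129.5, 119.8, 109.5 and 119.9 CPM in DMSO at 24 h, 127, 134, 124 and 122 with GW3965, 121, 121, 123 and 112 with T0901317 and 138, 140.5, 140.2 and 148 with rosiglitazone. At 48 h it stood at 163, 146, 165 and 154 CPM in DMSO, 103, 107, 99.7 and 99.9 with GW3965, 82.3, 75.4, 80.6 and 70.2 with T0901317 and 206, 222, 271 and 237 with rosiglitazone. The 4 groups did not overlap at 48 h, and the log2 values were -0.62 (SE 0.074, edgeR adjusted p = 1.17e-06), -1.03 (SE 0.074, edgeR adjusted p = 2.19e-09) and 0.56 (SE 0.073, edgeR adjusted p = 7.1e-06). BOP1 is a member of the PeBoW complex, which it forms with PES1 and WDR12 and which is needed to cut the spacer next to the large subunit RNA. Its 24 h values were 334, 379.8, 287 and 375 CPM in DMSO, 259.6, 369.5, 419 and 414 with GW3965, 329.8, 314, 381 and 286 with T0901317 and 515, 442, 514 and 505 with rosiglitazone. Its 48 h values were 221, 199, 200.2 and 224 CPM in DMSO, 283, 284, 264 and 264 with GW3965, 193, 145, 145 and 159 with T0901317 and 383, 397, 352 and 297 with rosiglitazone. BOP1 was above DMSO in every GW3965 library at 48 h, by 0.37 (SE 0.091, edgeR adjusted p = 0.00253), and below DMSO in every T0901317 library, with a log2 value of -0.40 (SE 0.091, edgeR adjusted p = 0.00161), and it rose with rosiglitazone by 0.74 (SE 0.092, edgeR adjusted p = 3.29e-06). The PeBoW complex was singled out after its values were seen. Its other members were not called with GW3965, at -0.19 (SE 0.069, edgeR adjusted p = 0.0284) for PES1 and 0.03 (SE 0.075, edgeR adjusted p = 0.77) for WDR12, and both rose with rosiglitazone, by 0.41 and 0.46. RRS1, NIP7, NOP16, WDR74 and MRTO4, assembly factors of the large subunit, fell with both LXR agonists and rose with rosiglitazone. So did PPAN, but its row overlaps that of the read-through gene PPAN-P2RY11, which held 83.6% as many counts.

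**Figure D3:**
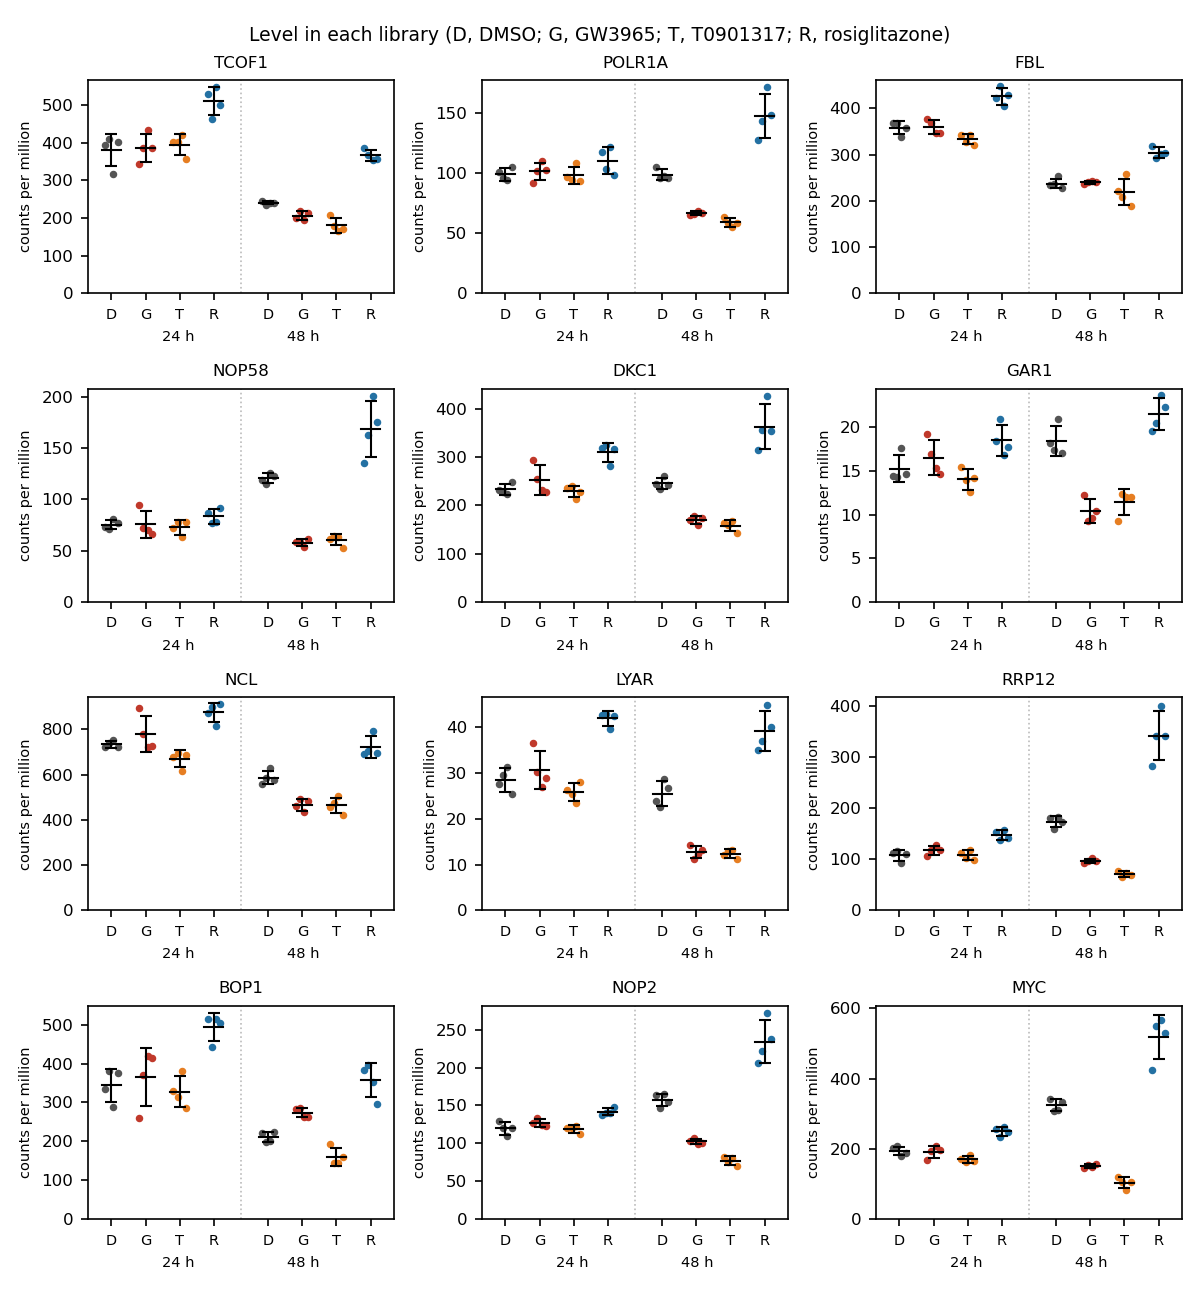
Level of 11 ribosome biogenesis genes and MYC in each library (CPM with TMM scaling, vertical axes from 0) for DMSO (D), GW3965 (G), T0901317 (T) and rosiglitazone (R) at 24 h and 48 h. Points are libraries, lines are means and bars the SD over 4 libraries; BOP1 is above DMSO with GW3965 at 48 h, and FBL overlaps DMSO with both LXR agonists.

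The response of the genes to an LXR agonist differed between the time points. In the fit of all 32 libraries the GW3965 response at 48 h was below that at 24 h for 33 of 46 genes and above it for 1, UBTF, beside 11.7% and 9.96% of all genes. For T0901317 it was below for 34 and above for 0, beside 9.95% and 7.49% of all genes. With library size scaling the T0901317 response was below for 24 genes. The largest differences among the 46 were -1.13 (SE 0.11, edgeR adjusted p = 3.89e-09) for DDX21 with GW3965 and -1.30 (SE 0.12, edgeR adjusted p = 5.42e-10) for RRP12 with T0901317; for MYC they were -1.09 (SE 0.12, edgeR adjusted p = 2.66e-08) and -1.46 (SE 0.12, edgeR adjusted p = 6.44e-11). The rosiglitazone response was above that at 24 h for 2 genes, RRP12 at 0.52 (SE 0.12, edgeR adjusted p = 0.00607) and the RNA acetyltransferase NAT10 at 0.37 (SE 0.088, edgeR adjusted p = 0.00821), and below for 0, beside 1.38% and 1.06% of all genes, and for MYC the difference was 0.31 (SE 0.12, edgeR adjusted p = 0.124). Both rosiglitazone calls were lost without any 1 of DMSO replicates 1, 2 and 4 at 24 h, DMSO replicates 2, 3 and 4 at 48 h, rosiglitazone replicate 4 at 24 h and rosiglitazone replicates 2, 3 and 4 at 48 h. The 2 time points were held in separate count tables, so time and table cannot be told apart in these differences, though each response was measured against DMSO of its own table.

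The 2 LXR agonists were also compared directly, without DMSO, and this was 1 of 2 direct pairs. At 24 h edgeR and DESeq2 each called 0 of 46 genes between GW3965 and T0901317 (0.193% of all genes higher and 0.597% lower), 19 were higher with GW3965 and 0 lower at an unadjusted p below 0.05, and the median difference was 0.14. The share of all genes at that unadjusted level was not counted. GW3965 replicate 1 at 24 h, part of this comparison, held the highest value of its group for 33 of the 46 genes. At 48 h 6 genes were higher with GW3965 and 0 lower, beside 5.03% and 3.32% of all genes. They were BOP1, at 0.77 (SE 0.092, edgeR adjusted p = 3.19e-05), PPAN at 0.57, RRP9 at 0.50, RRP12 at 0.44, NOP2 at 0.40 and BYSL at 0.31. MYC differed in the same direction, by 0.54 (SE 0.095, edgeR adjusted p = 0.000744). The 40 genes without a call differed by log2 values from -0.25 (NOP10) to 0.32 (RRS1), with SEs of 0.055 to 0.11, which does not show that the agonists acted alike on them.

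Rosiglitazone set directly against GW3965 gave 11 of 46 genes higher and 0 lower at 24 h, beside 4.6% and 6.09% of all genes, and without GW3965 replicate 4, rosiglitazone replicate 1 or rosiglitazone replicate 4 this count was 7, 6 and 7. DESeq2 gave 19, library size scaling gave 6 and a fit of the 2 groups alone gave 7. At 48 h 42 genes were higher with rosiglitazone and 1, UBTF, was lower, beside 22.4% and 22.6% of all genes, and 35 were higher by at least 1.5-fold (12.6% of all genes). The median difference of the 46 genes at 48 h was 0.82 on the log2 scale, beside -0.02 over all genes. RRP12 differed most, by 1.80 (SE 0.085, edgeR adjusted p = 1.98e-12), followed by LYAR at 1.60 and NOP58 at 1.53, beside 1.77 (SE 0.097, edgeR adjusted p = 1.71e-11) for MYC. The 3 genes without a call were NPM1, WDR75 and NOP10, at 0.07, 0.16 and 0.22.

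In cells given DMSO alone, MYC rose between 24 h and 48 h while the median of these genes was close to that of all genes. The log2 change of MYC was 0.74 (SE 0.086, edgeR adjusted p = 1.17e-08). Of the 46 genes 11 rose and 14 fell, beside 19.7% and 18.9% of all genes, and the median was 0.03, beside 0.00 over all genes. The genes that rose included NOB1 at 0.80 (SE 0.063, edgeR adjusted p = 2.24e-12), DDX21 at 0.79, RRP12 at 0.69, NOP58 at 0.68 and BYSL at 0.50. Those that fell included BOP1 at -0.70 (SE 0.12, edgeR adjusted p = 6.1e-06), TCOF1 at -0.67, UTP20 at -0.61, FBL at -0.59 and EBNA1BP2 at -0.56. Within the box C/D particle NOP58 rose and FBL and NOP56 fell, the latter at -0.27. Proliferation markers moved over the same interval, since 22 of 24 fell and 0 rose, and their summed level went from between 4030 and 4131 CPM to between 2434 and 2710 CPM. Their part in the values of the ribosome biogenesis genes was not tested. The 2 time points came from separate count tables, so time and table cannot be told apart in any of these values.

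**Figure D4:**
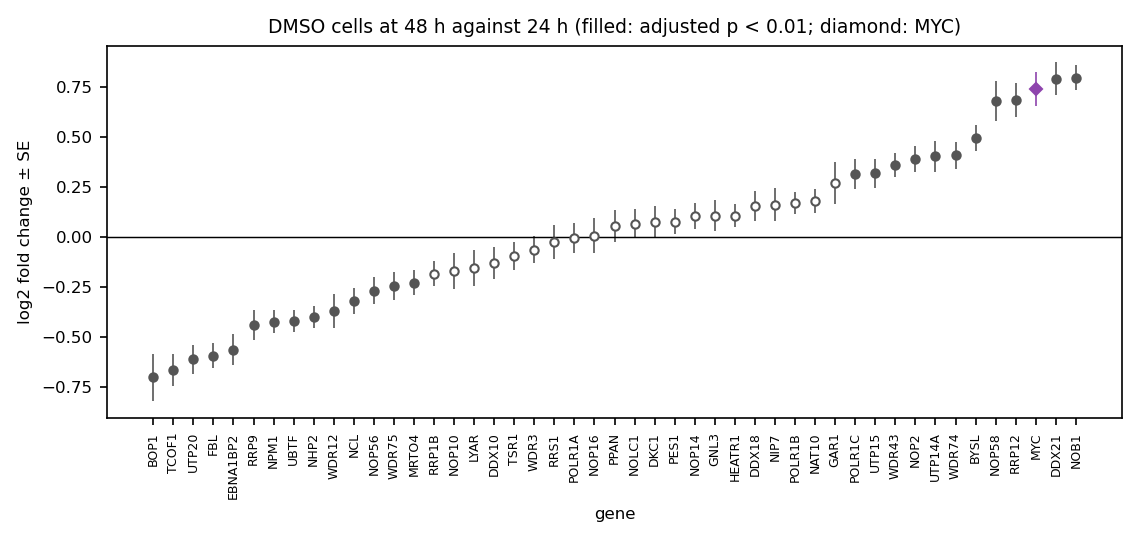
Log2 fold change of DMSO cells at 48 h against 24 h (vertical axis, with SE, 4 libraries a group) for the 46 genes and MYC, ordered by value. Filled points have an adjusted p below 0.01, 11 above 0 and 14 below; MYC (diamond, 0.74) lies near the upper end.

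Further genes of the pathway were taken from a list of 114, of which 111 had a row and were tested. This list, too, was chosen with earlier results of these data known. At 24 h 28 of the 111 rose with rosiglitazone and 0 fell, beside 5.81% and 6.52% of all genes. At 48 h 68 fell and 5 rose with GW3965 (17.5% and 16.1% of all genes), with a median log2 value of -0.40, 76 fell and 0 rose with T0901317 (16.1% and 14%), with a median of -0.42, and 51 rose and 1 fell with rosiglitazone (12.3% and 13.1%), with a median of 0.26. RIOK1, a kinase of small subunit ripening, fell by 1.25 with GW3965 and by 1.31 with T0901317, and RRN3, which recruits RNA polymerase I to its promoter, fell by 1.17 with T0901317 and rose by 0.69 with rosiglitazone. RRP1 and NOL6, processing factors, rose with rosiglitazone by 0.88 and 0.83. Those that rose with GW3965 included TAF1C, of the RNA polymerase I initiation factor, by 0.52, and TBL3, of the small subunit processome, by 0.36. The cytosolic ribosomal proteins, which make up the finished particle, were counted as well. Of 79, 8 rose and 11 fell with GW3965 at 48 h (16.1% and 17.5% of all genes), 4 rose and 0 fell with T0901317 (14% and 16.1%), and 2 rose and 24 fell with rosiglitazone (12.3% and 13.1%), with medians of 0.00, 0.09 and -0.09. Of the 24 proliferation markers 6 were higher and 0 lower with rosiglitazone at 24 h, beside 5.81% and 6.52% of all genes. At 48 h 2 were higher and 7 lower with GW3965 (16.1% and 17.5%), 3 and 6 with T0901317 (14% and 16.1%), and 4 and 1 with rosiglitazone (12.3% and 13.1%). Their part in the results was not tested.

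The promoters of these genes were read for the letters CACGTG, which are the same on both strands. RefSeq windows of the GRCh38.p14 assembly, from 250 bases before to 50 after a start site, were at hand for 38 of the 46 genes and not for NOLC1, NOP58, DDX18, RRP1B, TCOF1, RRS1, RRP12 and BOP1. Of the 38 genes 17 (44.7%) held the letters in at least 1 window, beside 10.9% of 15842 protein-coding genes, 26.7% of 90 genes of the longer pathway list and 6.35% of 63 ribosomal protein genes. Counted by windows, the share was 37.5% of 48, beside 8.34% of 22198. The following windows, written 5′ to 3′ from 120 bases before to 20 bases after the start site with CACGTG in capitals, show the letters in the 4 genes with the lowest T0901317 value at 48 h among those with them in this stretch, and in the 2 with the highest. They were chosen after the values were seen.
LYAR, chr4:4290002-4290141, minus strand: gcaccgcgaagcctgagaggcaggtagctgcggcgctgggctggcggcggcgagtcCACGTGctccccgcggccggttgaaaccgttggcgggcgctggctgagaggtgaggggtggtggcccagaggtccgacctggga
DDX21, chr10:68956527-68956666, plus strand: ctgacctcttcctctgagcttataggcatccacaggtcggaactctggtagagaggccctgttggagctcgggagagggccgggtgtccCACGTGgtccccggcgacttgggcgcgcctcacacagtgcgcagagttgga
WDR43, chr2:28894547-28894686, plus strand: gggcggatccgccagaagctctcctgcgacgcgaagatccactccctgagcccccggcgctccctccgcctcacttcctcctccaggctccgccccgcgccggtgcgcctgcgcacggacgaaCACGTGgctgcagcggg
MRTO4, chr1:19251685-19251824, plus strand: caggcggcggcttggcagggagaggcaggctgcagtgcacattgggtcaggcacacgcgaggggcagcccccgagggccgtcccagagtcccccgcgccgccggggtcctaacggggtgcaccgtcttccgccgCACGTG
FBL, chr19:39846360-39846499, minus strand: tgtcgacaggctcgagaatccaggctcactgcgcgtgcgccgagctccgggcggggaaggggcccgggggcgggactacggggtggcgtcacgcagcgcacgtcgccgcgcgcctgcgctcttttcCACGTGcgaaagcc
NOP10, chr15:34343117-34343256, minus strand: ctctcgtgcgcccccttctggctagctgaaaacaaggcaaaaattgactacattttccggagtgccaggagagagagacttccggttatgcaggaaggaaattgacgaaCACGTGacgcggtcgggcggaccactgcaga

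The letters begin 64 bases before the start site in LYAR, 31 before it in DDX21 and 11 before it in NOP10, and 3, 14 and 6 bases after it in WDR43, MRTO4 and FBL. LYAR, DDX21, WDR43 and MRTO4 fell with both LXR agonists and rose with rosiglitazone at 48 h, whereas FBL, with the same letters next to its start site, was called with rosiglitazone only and NOP10 with no drug. Of the 17 genes with the letters, 13 fell with GW3965 at 48 h, 15 fell with T0901317 and 12 rose with rosiglitazone. For the 21 with windows but without the letters the counts were 14, 16 and 15. The shares of all genes were 17.5%, 16.1% and 12.3%. The median log2 values at 48 h were -0.52, -0.59 and 0.41 with the letters and -0.35, -0.43 and 0.40 without. These are matches of letters in a window and not measured binding.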

How the data were processed

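RNA-seq count tables at 24 h and 48 h were used here, from HT29 cells in 8 groups of 4 libraries. Per the paper's methods and the labels, cDNA of mRNA was fragmented with Nextera transposases and sequenced in paired ends, and the submitters' processing notes name TopHat, Cufflinks and hg19; how the deposited counts per gene were made is not given in the sources used here. In them the value 2 was as frequent (50039 times) as 1 (50072 times), so both ends of a pair appear to have been counted. The counts as deposited by the authors were filtered with filterByExpr, scaled with TMM and tested with edgeR 4.0.16 (quasi-likelihood, R 4.3.3) over the 4 libraries in each of 4 groups of a time point (21781 and 22470 genes), or over all 32 for time and interactions (23140 genes), with Benjamini-Hochberg adjustment and calls at an adjusted p of 0.01. The SE is the log2 fold change over the square root of its F. The test was checked on simulated data. The column names that shorten rosiglitazone were matched to its samples by that name.

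The members and gene lists were chosen with earlier results of these data known. Values by library are given for MYC and, in each role group, for the gene with the highest mean CPM and those with the lowest and the highest log2 fold change at 48 h; genes with opposing calls are named, and of other lists up to 4 genes a direction. Alternatives were DESeq2 1.42.0, library size scaling, no filter, a replicate block, fits of 2 groups or of all 32 libraries, and leaving out each library. Totals of 21044798 to 51332656 counts limit the precision of low values. Peak files, called against hg19, were not analysed here.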

Additional observations from a re-analysis of the deposited data

Results flagged for a closer look

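Among 104 sets of 4 libraries (the 11 genes given by library, MYC and the sum of the 46 genes, in 8 groups), 6 sets, or 5.77%, held a library far from the other 3 by Dixon's test, where chance gives about 1 in 20. They were POLR1A in DMSO replicate 1 at 48 h (105.1 CPM), GAR1 in DMSO replicate 3 at 24 h (17.6 CPM) and in T0901317 replicate 1 at 48 h (9.245 CPM), NCL in rosiglitazone replicate 3 at 48 h (791.6 CPM), BOP1 in rosiglitazone replicate 2 at 24 h (442 CPM), and the sum of the 46 genes in DMSO replicate 3 at 24 h (5509 CPM).

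The interaction term of the fit of 32 libraries asked whether the response to a drug differed between 48 h and 24 h. It was called in 34 of the 46 genes for GW3965, 34 for T0901317 and 2 for rosiglitazone. Of all genes 11.7% were lower and 9.96% higher for GW3965, 9.95% and 7.49% for T0901317, and 1.06% and 1.38% for rosiglitazone. For GW3965 the log2 difference was -1.09 for MYC, -0.60 for POLR1A, -1.07 for NOP58, -0.65 for DKC1, -0.94 for GAR1, -0.42 for NCL, -1.11 for LYAR, -0.97 for RRP12 and -0.70 for NOP2. For T0901317 it was -1.46 for MYC, -0.47 for TCOF1, -0.73 for POLR1A, -0.95 for NOP58, -0.61 for DKC1, -0.57 for GAR1, -0.91 for LYAR, -1.30 for RRP12 and -1.02 for NOP2. For rosiglitazone it was 0.52 for RRP12.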

How the results depend on the processing

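The calls of MYC and the counts at 48 h kept their direction under each setting run. No value called in any setting changed sign. Median differences over the ribosome biogenesis genes were taken from the main fit only, and their direction under the other settings was not tested. Over single genes, 9388 values stayed on their side of the threshold, 279 lost a call, 85 gained one and 0 reversed. With DESeq2, GW3965 gave 1 gene higher at 24 h in place of 0 and rosiglitazone gave 19 higher than GW3965 at 24 h in place of 11. With library size scaling the genes higher were 9 in place of 27 for rosiglitazone at 24 h, 6 in place of 11 for rosiglitazone against GW3965 at 24 h, 1 in place of 2 for GW3965 at 48 h, 21 in place of 35 for rosiglitazone at 48 h, with 1 lower in place of 0, and 1 in place of 2 for the rosiglitazone difference between times, for which leaving out the filter also gave 1. A fit of the 2 groups compared gave 7 higher for rosiglitazone against GW3965 at 24 h. Leaving out 1 library gave 17 to 22 genes higher for rosiglitazone at 24 h, 6 to 20 for rosiglitazone against GW3965 at 24 h, 1 to 2 for GW3965 at 48 h (1 without DMSO replicate 2, 3 or 4 or GW3965 replicate 4) and 0 to 4 for the rosiglitazone difference, with 4 without rosiglitazone replicate 1 at 48 h. The causes were not tested.

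Library size scaling moved the median of all genes by -0.18 for rosiglitazone at 48 h, -0.14 for rosiglitazone against GW3965 at 48 h and -0.1 for the rosiglitazone difference between times. The share of all calls that were higher went from 68.2% to 55.4% for GW3965 at 24 h, 47.1% to 25.2% for rosiglitazone at 24 h, 48.4% to 20.1% for rosiglitazone at 48 h, 60.2% to 31.9% for GW3965 against T0901317 at 48 h, 49.8% to 35.9% for rosiglitazone against GW3965 at 48 h, 42.9% to 55.7% for the T0901317 difference between times and 56.5% to 29.3% for the rosiglitazone one.

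Whether replicates of the same number shared more than that number is not known. Over the genes passing the filter, the correlation of their deviations from the group means was between -0.0649 and 0.0989 in 24 pairs at 24 h. At 48 h it was between -0.044 and 0.0761. Low values over all these genes, many with few counts, cannot show that nothing else was shared. With a replicate block 22 genes were higher with rosiglitazone at 24 h and 36 at 48 h, 35 were lower with GW3965 and 39 with T0901317 at 48 h, and 8 rose and 12 fell in DMSO over time, so that no count moved by over 1.5 times. Peaks at the promoters were planned and not run.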
